A study of Mus musculus with 2 samples.

Results

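The clustered protocadherins are 3 neighbouring gene families on mouse chromosome 18, Pcdha, Pcdhb and Pcdhg. All protein-coding genes of GENCODE M21 on that chromosome whose symbol begins with Pcdha, Pcdhb or Pcdhg, followed by a number or by a, b or c, were taken, which gave 57 members of 21938 protein-coding genes. The alpha cluster held 14 of them, the beta cluster 22 and the gamma cluster 21, and all lay on the plus strand. Their accessible DNA was described in MN1, an immortalized mouse cell line whose strain the labels give as B6NCrl. The series holds 1 group, MN1, with no treatment named, and 2 biological replicates of 1 library each. The labels leave the stage and age of the source animal unknown, its sex uncollected and its tissue unnamed. Tubb3, Map2, Syt1 and Isl1 were 4 genes used here as a check of neuronal character. Their promoters had a peak in both libraries, beside 54.9% of all protein-coding genes. The Map2 peaks ranked low by score, at percentiles 28.8 in replicate 1 and 48.5 in replicate 2. Promoters of Cd3e, Alb and Myod1 (T cell, liver and muscle genes) had no peak in either library.

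Clustered protocadherins are cadherin-like adhesion molecules with which neurons recognise their own branches. Each variable exon has its own promoter and encodes the extracellular, transmembrane and juxtamembrane parts of a protein. Alpha and gamma variable exons are spliced to constant exons shared by the whole cluster, which encode the common intracellular end, whereas each beta gene stands alone and has no constant exon. In single neurons most alpha, beta and gamma promoters are used by a combinatorial choice that differs between cells, while the C-type promoters Pcdhac1, Pcdhac2, Pcdhgc3, Pcdhgc4 and Pcdhgc5 are used more uniformly. Active promoters of the family are known to bind CTCF, the factor that anchors chromatin loops with cohesin, and to contact enhancers beyond the variable exons.

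DNase-seq finds accessible chromatin from the places where DNase I cuts in isolated nuclei. The values used were the authors' list of peaks and their list of hotspots, which are wider regions with a q-value. Replicate 1 had 170600 peaks and replicate 2 had 162983. Read depth is unknown, so a missing peak says only that none was called. Each peak carries a score made by the authors between 1 and 150, used here to rank peaks within their own list, and a percentile is that rank in percent. A promoter was the sequence within 1 kb of the start of the transcript with the longest coding sequence, which in each member is the transcript that begins with its variable exon. Coordinates are on mm10, and distances are from that start to the peak centre, negative upstream.

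A promoter peak was present in both libraries at 24 of the 57 members (42.1%), against 54.9% of all protein-coding genes. The 3 clusters differed widely. The share was 16 of 22 in beta (72.7%), 7 of 14 in alpha (50%) and 1 of 21 in gamma (4.76%). With peaks above the median score of their list alone, beta kept 10 members. Taking each library by itself, gamma had 2 members with a promoter peak in replicate 1 and 3 in replicate 2. The libraries are pools of cells, so promoters that were open in the same cells and promoters that were open in different cells cannot be told apart. With 1 group and 2 libraries no test between conditions exists, and the counts describe these libraries. Hotspots picked out the same 24 members in both libraries (42.1%), against 55.2% of all genes.

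Promoter CpG content is given beside these shares because accessible and peak-free promoters differed in it across the genome. The CpG observed/expected ratio within 500 bp of the start had a median of 0.735 over all genes with an accessible promoter (a peak in each library), against 0.216 over genes with none in either. Pooled over the members the order was the other way round, with a median of 0.438 in the 24 with a peak in both libraries and 0.642 in the 27 with none, but the clusters differ in both ratio and share of peaks, and this order did not hold within beta or gamma. The medians of members with a peak in both and of those with none were 0.384 and 0.299 in beta, 0.798 (Pcdhgc3 alone) and 0.592 in gamma, and 0.681 and 0.699 in alpha, where they were close. The beta promoters were CpG-poor, with a median ratio of 0.378, whereas the medians of alpha and gamma were 0.686 and 0.594. Of the other genes whose ratio lay within the range of the beta members, 29.9% had such a peak, below the 72.7% of beta. Other genes in the range of the alpha members had one in 80.0% and those in the range of the gamma members in 67.2%, above the 50% of alpha and the 4.76% of gamma. The part of CpG content in these shares was not tested.

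**Figure D1:**
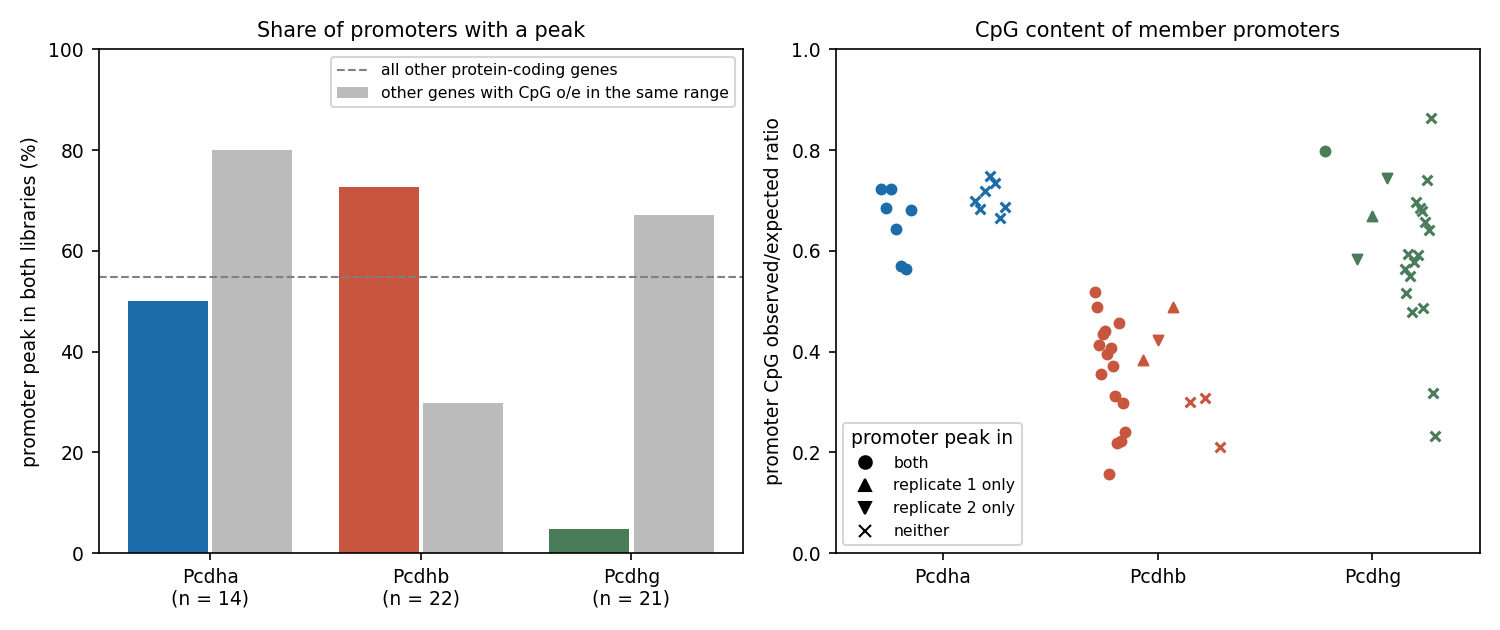
Left, the percentage with a promoter peak in both libraries for the Pcdha, Pcdhb and Pcdhg members (coloured bars, n below each) and for other genes whose promoter CpG observed/expected ratio lies in the same range (grey bars), with all other protein-coding genes as a dashed line. Right, the ratio of each member, with symbols for the libraries in which its promoter had a peak; the beta members sit lowest (median 0.378) and yet most of them carry a peak, while most gamma members (median 0.594) carry a cross.

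The alpha cluster begins with Pcdha1 and ends with Pcdhac2. Its open promoters were Pcdha1, Pcdha2, Pcdha8, Pcdha9, Pcdha12, Pcdhac1 and Pcdhac2, and the other 7 had no peak and no hotspot in either library. The 7 without a peak formed 2 runs of neighbours. Pcdha3 to Pcdha7 stand side by side inside a stretch of 52.4 kb (36939846 to 36992235) that held no peak of either library. The other run is a pair of genes that the annotation both calls Pcdha11, starting at 37005203 and 37010752.

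The C-type promoters were the highest in the alpha cluster. Pcdhac1 scored 108 in replicate 1 and 103 in replicate 2, and Pcdhac2 scored 103 in each. Pcdha1, the cluster's most upstream promoter, scored 100 and 75, Pcdha9 scored 89 and 74, and Pcdha8 scored 81 and 74. These 5 promoters lay between the percentiles 76.7 and 89.3 of their lists in both libraries. Pcdha2 scored 63 and 38 and Pcdha12 scored 48 and 38, lower than the other 5 in each library. The best peak lay between 155 and 41 bp upstream of the start in both libraries for 6 of the 7, and 367 bp downstream of it for Pcdhac2. Of the whole family, alpha is the cluster in which no member differed between the libraries in whether it had a promoter peak.

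The beta genes are single-exon genes that each carry their own promoter. The 16 with a promoter peak in both libraries were Pcdhb1 to Pcdhb6, Pcdhb8 to Pcdhb11, Pcdhb15, Pcdhb16, Pcdhb17, Pcdhb19, Pcdhb20 and Pcdhb21. Pcdhb12, Pcdhb18 and Pcdhb22, the last gene of the cluster, had none in either library. The longest run of neighbouring beta members without a peak in both libraries was Pcdhb12, Pcdhb13 and Pcdhb14.

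Scores in beta spread over most of the scale. Pcdhb11 was the highest, with 100 in replicate 1 and 105 in replicate 2, followed by Pcdhb6 with 91 and 100 and Pcdhb3 with 88 and 87. These 3 promoters reached percentiles of 80.6 to 89.5. Pcdhb2 scored 73 and 67, Pcdhb10 scored 65 and 56, and Pcdhb16 scored 55 and 69. Pcdhb20 scored 72 and 48, Pcdhb19 scored 69 and 44, Pcdhb17 scored 67 and 45 and Pcdhb1, the gene nearest to the alpha cluster, scored 59 and 41. Their percentiles ran from 52.1 to 74.3, and the order of these 7 differed between the libraries. The scores of Pcdhb1 came from different sites, 168 bp upstream in replicate 1 and 32 bp downstream in replicate 2. The replicate 1 peak that overlapped the latter scored 56. Pcdhb5 scored 46 and 50, Pcdhb9 scored 46 and 43, Pcdhb4 scored 45 and 41 and Pcdhb21 scored 42 and 47. These last 4 stood higher in the list of replicate 2 (percentiles 52.1 to 61.2) than in that of replicate 1 (40.7 to 46.4).

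At the low end, Pcdhb8 scored 21 and 16 and Pcdhb15 scored 17 and 19, at percentiles between 4.23 and 14.1. The scores of Pcdhb8 came from different sites, 819 bp downstream in replicate 1 and 181 bp upstream in replicate 2. The replicate 1 peak that overlapped the latter scored 20. Pcdhb8 and Pcdhb15 were also the members with a peak in both libraries whose best hotspot stayed below the q-value cap of 100 (−log10 scale) in both. The values were 2.94 and 1.65 for Pcdhb8 and 1.62 and 4.55 for Pcdhb15. Pcdhb4 stayed below the cap in replicate 1 alone (5.70), and the best hotspot of the other 21 members was at the cap in both libraries.

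In the gamma cluster the C-type promoter Pcdhgc3 was the single member with a promoter peak in both libraries. Pcdhgc3 scored 97 in replicate 1 and 92 in replicate 2, at percentiles 84.9 and 85.04, with the peak centre 120 and 100 bp upstream of the start. None of the 12 gamma A and none of the 6 gamma B members had a peak in both libraries, from Pcdhga1, the most upstream, to Pcdhga12. Pcdhgc4 had a low peak in replicate 1 alone, and Pcdhgc5, the last gene of the cluster, had none. Over both clusters, 3 of the 5 C-type members therefore carried a promoter peak in both libraries.

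A gamma-type gene outside the 57 did carry peaks. Pcdhgb8, which GENCODE M21 lists as a polymorphic pseudogene and which is therefore not a member, had a peak 131 bp upstream of its start with a score of 109 in replicate 1 and 82 in replicate 2. Another lay 411 bp upstream in replicate 1 (score 108) and 431 bp upstream in replicate 2 (score 77). Pcdhgb8 lies between Pcdhga11 and Pcdhga12. Among shared peaks of the gamma span outside member promoters, the 2 peaks of Pcdhgb8 had the highest mean percentiles. A stretch of 33.2 kb without a peak in either library, holding the starts of 6 gamma members ended just upstream of it. Another of 43.6 kb, holding the start of Pcdhga12, followed it, and a stretch of 51.1 kb at the head of the cluster held the starts of 7 gamma members.

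The libraries disagreed at 6 members, against 3.18% of all genes with a promoter peak in 1 library only. Pcdhb7 (score 23), Pcdhb13 (22) and Pcdhgc4 (27) had a peak in replicate 1 only. Pcdhb14 (16), Pcdhga6 (8) and Pcdhga8 (12) had a peak in replicate 2 only. All 6 peaks stood at or below percentile 14.6 of their list, and their hotspots had a −log10 q between 2.22 and 3.04.

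Where a member promoter did have a peak in both libraries, that peak ranked below those of most genes. The median percentile of the best promoter peak over the 24 members was 68.1 in replicate 1 and 63.6 in replicate 2. The medians over all genes with a promoter peak in both libraries were 95.5 and 95.6. In each library 0 of the 24 members reached the median of all such genes, and the highest member stood at 89.3 (Pcdhac1) in replicate 1 and 89.5 (Pcdhb11) in replicate 2. Beta was lowest among the clusters with several open members, at 63.3 and 58.9, against 81.1 and 77.0 in alpha. Other genes in the CpG range of beta had medians of 84.0 and 83.9.

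**Figure D2:**
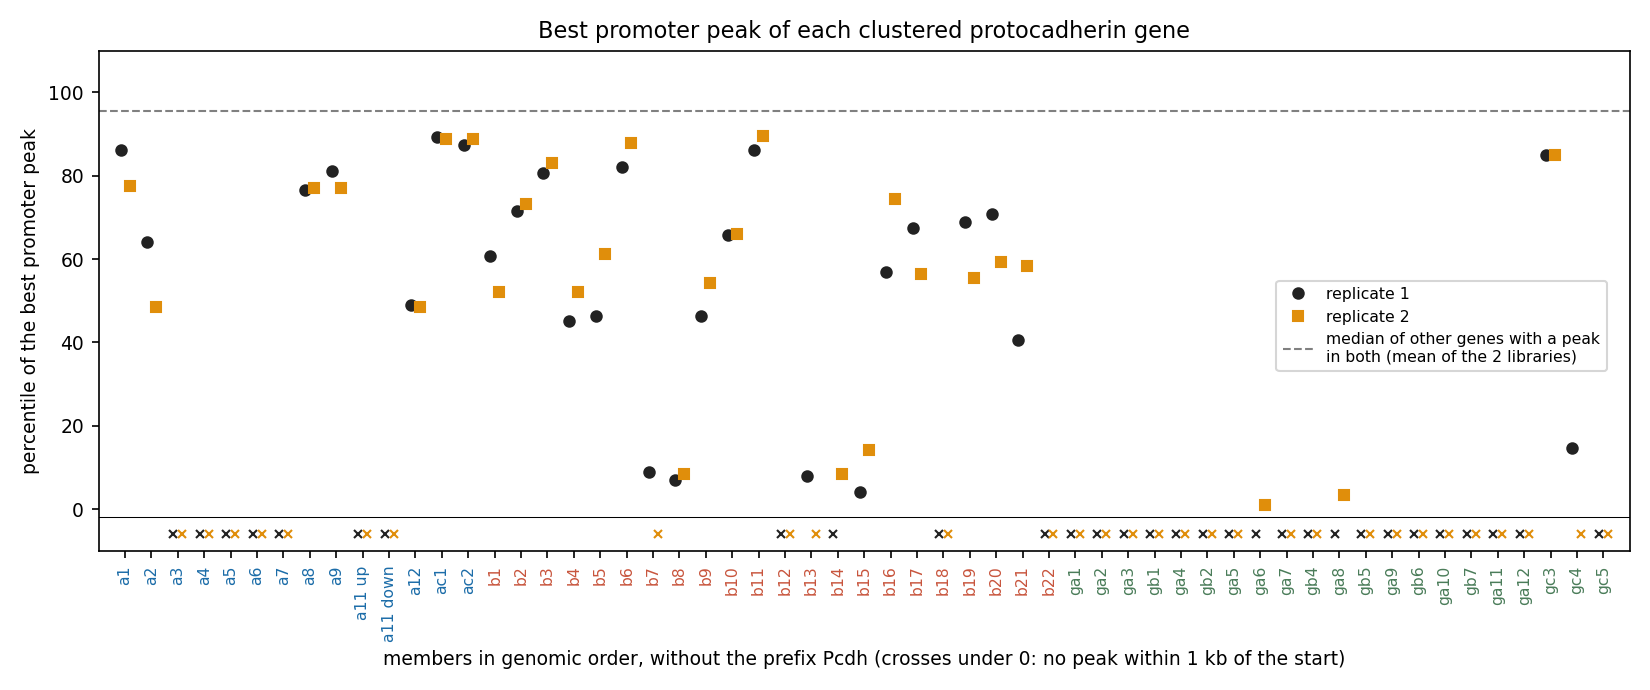
Percentile of the best promoter peak within its own list (vertical axis) for each of the 57 members in genomic order, in replicate 1 (black circles) and replicate 2 (orange squares); crosses below 0 mark no peak within 1 kb of the start, and the dashed line is the median of other genes with a promoter peak in both libraries. Every member lies under the line, the highest at 89.3 and 89.5, and the gamma members are nearly all crosses apart from Pcdhgc3.

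Alpha and beta differed in where peaks lay after the start. All 7 open alpha members had, in both libraries, a peak between 300 and 1000 bp downstream, inside the variable exon. In 6 of the 7 a separate peak also lay within 300 bp upstream of the start in both libraries. Pcdha1 shows the pair plainly, with peak centres 155 bp upstream (replicate 1) and 115 bp upstream (replicate 2), and 485 bp downstream in each library. Pcdha9 had exon peaks at 430 and 550 bp in each library, and Pcdha12 at 561 bp in each. In beta, 4 of the 16 open members had an exon peak in that interval in both libraries (Pcdhb3, Pcdhb6, Pcdhb11 and Pcdhb20, in the last of which the peaks of the libraries did not overlap), while 14 of the 16 had one within 300 bp upstream of the start.

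**Figure D3:**
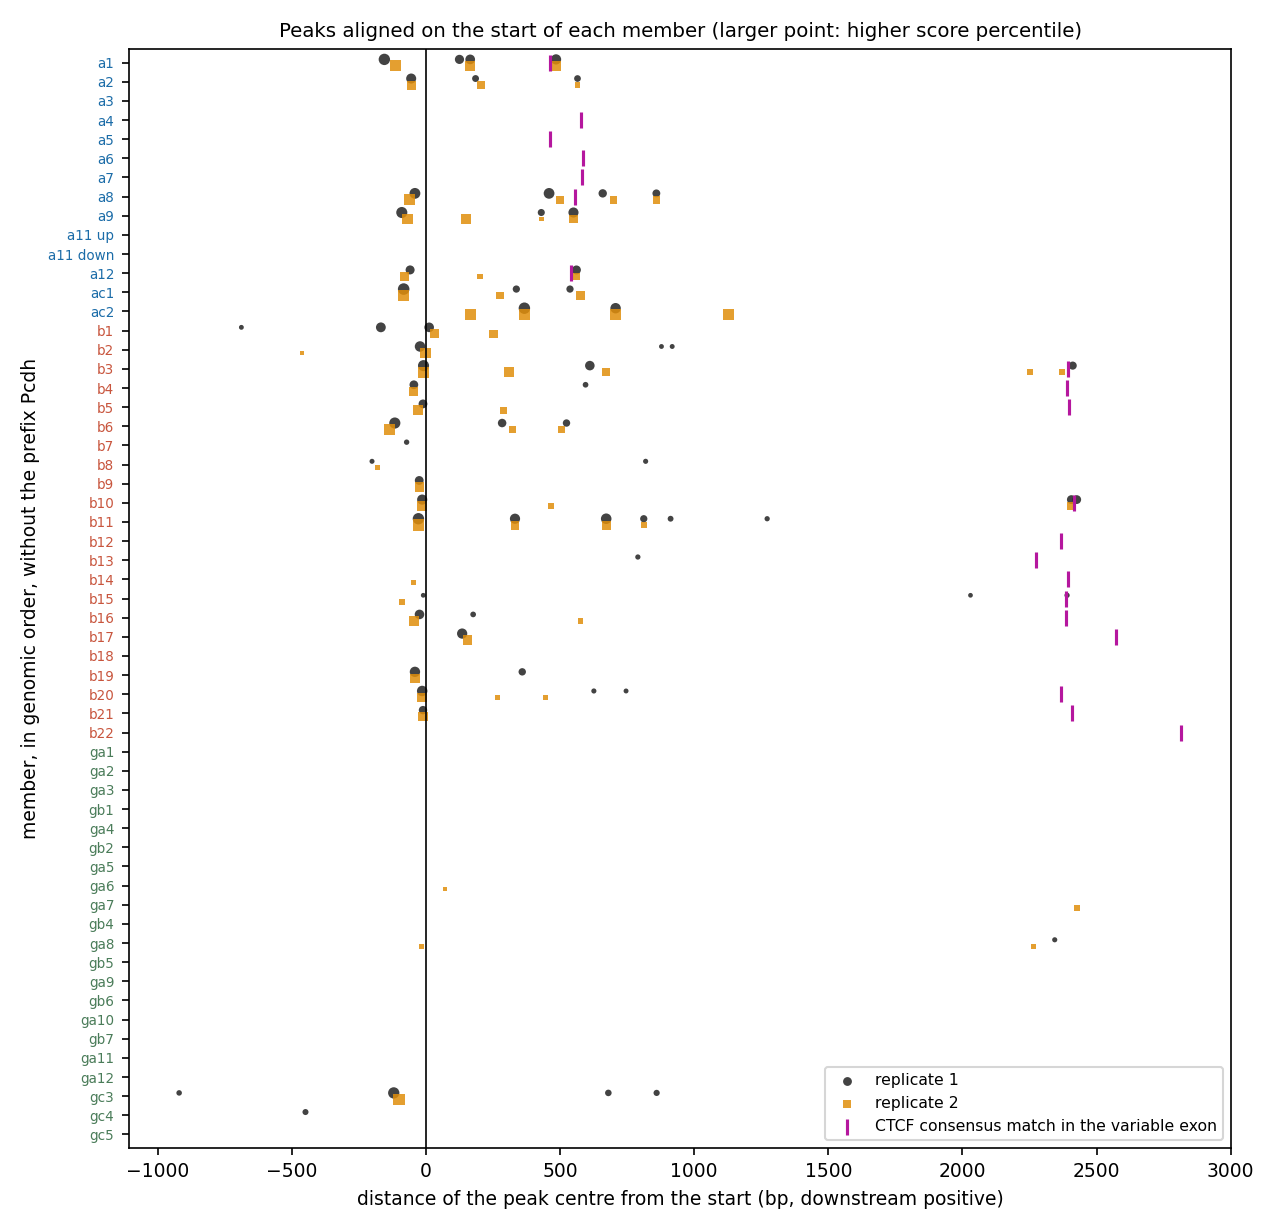
Peak centres of replicate 1 (black circles) and replicate 2 (orange squares) by distance from the start of each member in bp, with members in genomic order down the page, point size for the score percentile, and purple ticks for exact CTCF consensus matches inside variable exons. Each of the 7 open alpha members shows 1 or more peaks between 300 and 1000 bp after the start in both libraries and 6 of them also show one just before it; 14 of the 16 open beta members share a column of peaks just before the start, with further peaks after it in some, and the gamma rows are almost empty.

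The position of these exon peaks was set beside the DNA motif of CTCF. Exact matches to the 12-letter CTCF consensus were searched on both strands. Within 1 kb of the start, 7 of the 57 members held one (12.3%), against 4.74% of all promoters of the same length. All 7 were alpha genes: Pcdha1, Pcdha4, Pcdha5, Pcdha6, Pcdha7, Pcdha8 and Pcdha12. Each match lay inside the variable exon, 461 to 586 bp after the start, on the same strand as the gene. Alpha variable exons are copies of one another, so these matches share their origin and are not independent. With 1 mismatch allowed, the order turned round over the whole family: 20 members held a match (35.1%), against 48.3% of all promoters. By cluster the share was then 92.9% in alpha, 4.55% in beta and 28.6% in gamma.

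A match did not by itself go with a peak, since 4 of the 7 belonged to members without one (Pcdha4 to Pcdha7), which also had no hotspot within 1 kb of the start. The matches of the 3 open members, Pcdha1, Pcdha8 and Pcdha12, lay in a hotspot in both libraries, and 2 of them lay inside a peak in both. Beta genes held their matches elsewhere. In 13 of the 22 beta variable exons a match lay far down the exon, 2276 to 2815 bp after the start with a median of 2392 bp, and every one was on the opposite strand to the gene. Of these 13, those of Pcdhb3 and Pcdhb10 lay in a peak in both libraries and that of Pcdhb15 in a peak of replicate 1 alone. The gamma cluster held 0 exact matches. Counted over peaks, 5 of the 67 peaks found in both libraries within the cluster spans held one (7.46%), against 5.76% of all such peaks in the genome and 7.01% of those outside promoters. With peaks above the median score alone, 1 of 33 did. Of the 5, 2 were overlapping replicate 1 peaks at Pcdhb10 that held the same match, so the 5 are not all separate sites. A match is a run of letters and no measurement of CTCF binding, which was not measured in these libraries.

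The letters CGCT, the core of the conserved element known from clustered protocadherin promoters, occurred on either strand within the 250 bases upstream of the start in 55 of the 57 members (96.5%), against 61.7% of all promoters. The shares were 100% in alpha, 95.5% in beta and 95.2% in gamma. Other genes in the CpG range of each cluster held the letters in 83.7%, 43.1% and 73.9%. So short a word can occur without the whole element, which was not searched for. The exact CTCF matches all lay after the start, outside the 250 bases searched, so overlap between the letters and those matches could not be examined. The 2 members without the letters were Pcdhb22 and Pcdhga12, neither of which had a promoter peak. Since 20 of the 21 gamma members held these letters and 1 had a peak in both libraries, their presence did not separate the promoters with a peak from those without.

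Copies within a family can lose reads that map to several places. The share of 31-letter words within 1 kb of the start that occur once in the genome had a median of 92.9% in the 24 members with a peak in both libraries and 91.9% in the 27 with none. In alpha the medians were 91.5% in the 7 open members (78.2% to 100%) and 86.7% in the 7 others (73.2% to 89.1%). The lowest of these others were Pcdha7 (73.2%) and Pcdha6 (77.1%), both in the stretch without a peak. Among the open members, Pcdhac1 and Pcdhac2 each had 100%. In gamma the 17 members with no peak had a median of 97.3%, with a lowest value of 80.8%. How the authors treated reads that map to several places is not given in the sources used here, and the part of sequence uniqueness in the calls was not tested.

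Beyond the promoters, the alpha and gamma clusters carried accessible sites near their constant exons. Shared peaks are those of replicate 1 with at least 1 bp in common with any peak of replicate 2. The 3 cluster spans together held 67 shared peaks (33 with peaks above the median score alone), or 9.61 per 100 kb, against 4.19 per 100 kb over the main chromosomes and 3.64 on chromosome 18 as a whole. The density was 12.04 per 100 kb in alpha, 10.4 in beta and 4.998 in gamma. Of the 67, 44 lay at member promoters. The spans held 60 protein-coding starts in 697 kb, against 21938 in 2.73e+06 kb of main chromosomes. The part of these packed starts in the density was not tested. In beta, 23 of the 27 shared peaks lay at member promoters and 3 farther down variable exons, so 1 was left (37374276 to 37374425, scores 34 and 20, between Pcdhb8 and Pcdhb9). In alpha 11 of 31 lay away from member promoters, and in gamma 8 of 9.

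Of the 11 in alpha, 7 lay in the intron between the constant exons 2 and 3. The strongest was at 37178496 to 37178645, with a score of 109 in replicate 1 and 102 in replicate 2, and the next at 37172316 to 37172465, with 104 and 67. Both outscored the promoter of Pcdha1 in replicate 1, and the first did so in replicate 2 as well. A further site at 37149356 to 37149505 (88 and 78) lay between the Pcdhac2 variable exon and the first constant exon, and 3 peaks between 37141796 and 37142485 lay upstream of Pcdhac2 (59 to 69 in replicate 1). Enhancers of the alpha cluster are known in mouse from the constant region and from beyond its last exon. The sources used here give no coordinates for them, so no peak is equated with a named enhancer.

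The sequence between the last alpha exon and Pcdhb1 holds no protein-coding start, and it held the site with the highest mean percentile of any shared peak of the region outside the promoters of protein-coding genes. This peak, at 37218236 to 37218385 and 30.6 kb beyond the end of the alpha cluster, scored 138 and 134, at percentiles 97.8 and 97.1. It stood above every member promoter in both libraries. Beside it lay peaks at 37217336 to 37217485 (115 and 108), which held an exact CTCF consensus match on the minus strand, and at 37217736 to 37217885 (107 and 78). Thus the exact matches in alpha variable exons were on the plus strand, and the one in the peak beyond the alpha cluster was on the minus strand. With 1 mismatch allowed, alpha variable exons also held minus-strand matches, such as Pcdha1 (319 bp after the start) and Pcdha12 (397 bp). Pcdha2 then held a match on the minus strand alone (429 bp), and Pcdha8 on the plus strand alone. The other 3 shared peaks of this gap were lower, at 37209876 to 37210025 (58 and 52), 37189096 to 37189245 (59 and 31) and 37236716 to 37236865 (25 and 19). Peaks found in replicate 1 only lay at 37210296 to 37210445 (27), 37210356 to 37210505 (29) and 37216636 to 37216785 (55). Those of replicate 2 only lay at 37197956 to 37198105 (24) and 37216836 to 37216985 (33).

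In the gamma cluster the sites away from member promoters were the Pcdhgb8 pair, the end of the Pcdhga8 variable exon (37727976 to 37728125, 21 and 14) and 5 peaks around the constant exons. A peak at 37824996 to 37825145 covered constant exon 1 and scored 84 and 75, and another lay just before it at 37824036 to 37824185 (43 and 35). Between constant exons 2 and 3 lay peaks at 37836456 to 37836605 (84 and 81), 37836116 to 37836265 (65 and 53) and 37835636 to 37835785 (63 and 56). Peaks thus lay around the gamma constant exons in both libraries, although 1 of the 21 member promoters had a peak in both. The promoter of Pcdhgb8, which is not a member, had peaks in both libraries as well. The peak at 37824036 to 37824185 lay 231 bp after the start of Gm38182, a processed transcript.

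Downstream of gamma the peaks grew dense. The 200 kb flank after the last gamma exon held 48 shared peaks, or 24.0 per 100 kb, compared with 10.5 per 100 kb in the 200 kb before Pcdha1. The flank before Pcdha1 includes the best promoter peak of Pcdha1, whose centre lies upstream of the gene. That peak is therefore not among the 67 of the cluster spans. A peak at 37842676 to 37842825 (64 and 62) lay 0.877 kb beyond the last gamma exon, before the next gene. That gene, Diaph1, encodes a formin that nucleates actin filaments, and 15 shared peaks lay inside it away from its promoter. The strongest of these were at 37880256 to 37880405 (134 and 132), 37852176 to 37852325 (131 and 112) and 37877356 to 37877505 (122 and 93), all above every member promoter in replicate 1. A peak at 37883596 to 37883745 (119 and 110) held an exact CTCF match on the minus strand, as did a lower one at 37887116 to 37887265 (45 and 25). Peaks inside Diaph1 cannot be assigned to Diaph1 or to the gamma cluster from these lists.

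**Figure D4:**
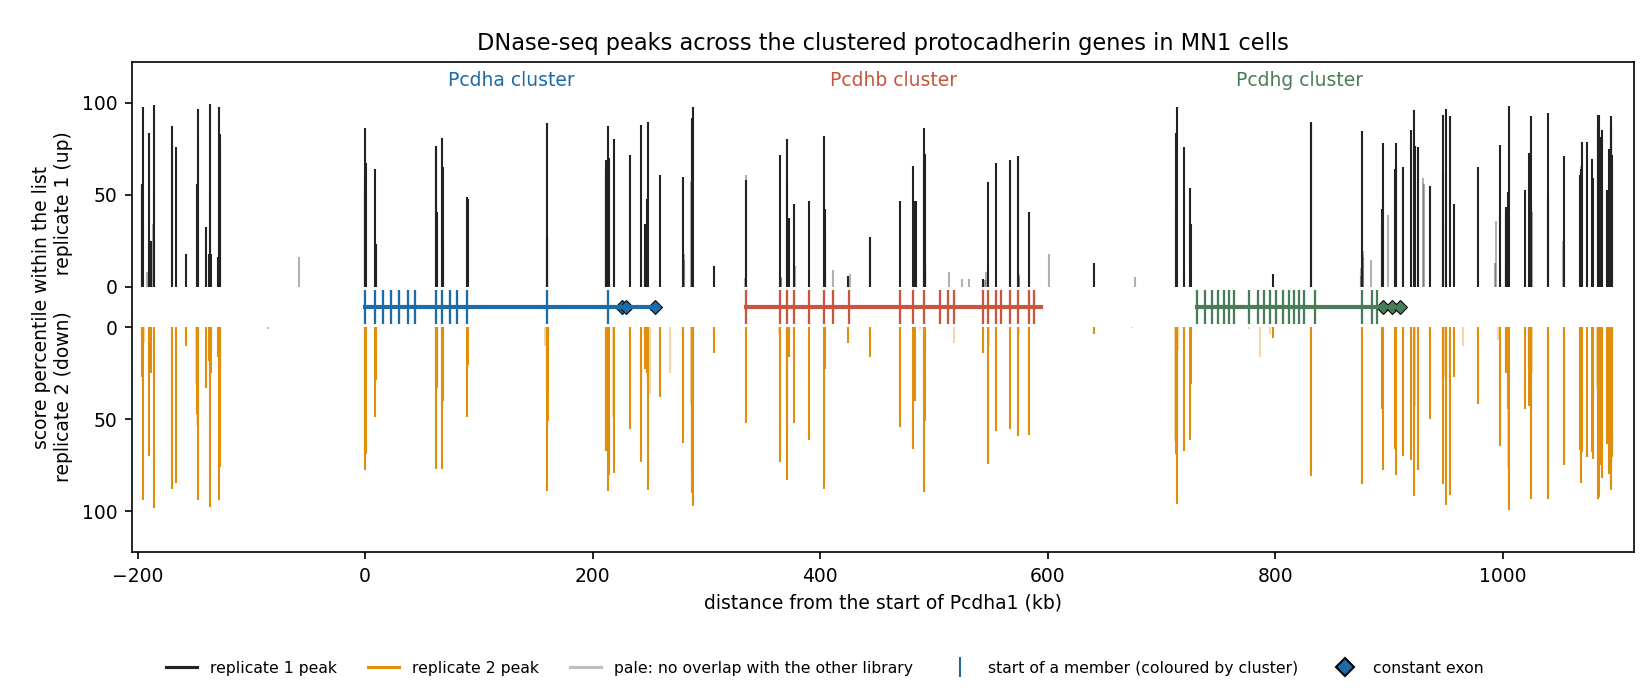
Peaks of replicate 1 (upward, black) and replicate 2 (downward, orange) by score percentile within their own list, along the 3 clusters and 200 kb on either side, in kb from the start of Pcdha1; pale lines are peaks without overlap in the other library, ticks are member starts and diamonds constant exons. The tall pair of lines close to 288 kb, between the Pcdha and Pcdhb clusters, is the peak at percentiles 97.8 and 97.1; most Pcdhg starts have no line above or below them.

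Neighbouring genes were counted in the same way. Of 18 other protein-coding genes with a start in the clusters, gaps and flanks, 13 had a promoter peak in both libraries, beside 54.9% of all protein-coding genes. Taf7, which encodes a subunit of the general transcription factor TFIID and lies between beta and gamma, scored 137 and 131, and its neighbour Slc25a2, a mitochondrial carrier gene, had no promoter peak. Diaph1 scored 140 and 144 and Hdac3, a histone deacetylase gene shared with Rell2 at 1 promoter, scored 119 and 120. Upstream of Pcdha1, the promoters of Tmco6, Ndufa2, Ik, Wdr55, Hars, Hars2 and Zmat2 had peaks in both libraries, and that of Dnd1 had none. Ndufa2 and Ik shared the same best peak (143 and 138), as did Hars and Hars2 (133 and 122), so the 13 genes are not all separate sites. Beyond Diaph1, Fchsd1 scored 126 and 120 and Arap3 scored 59 and 57. The other 3 of the 18, Gm42416, Gm37013 and Gm37388, start inside the alpha cluster and had no promoter peak. Away from coding promoters, the gap between beta and gamma held shared peaks at 37642836 to 37642985 inside Taf7 (94 and 60) and at 37649716 to 37649865 (80 and 58).

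Genes known to act on clustered protocadherins were also looked up. Of the 19 listed, 17 carried a promoter peak in each library, beside 54.9% of all protein-coding genes. The list was chosen from general knowledge and no test of it was made. Ctcf scored 139 in replicate 1 and 147 in replicate 2. The cohesin subunit genes Rad21 (138 and 133), Smc1a (133 and 123) and Smc3 (143 and 144) had high peaks too, as did the cohesin loader gene Nipbl (144 and 141) and the release factor gene Wapl (136 and 138). Dnmt3b, a DNA methyltransferase gene known to act on these promoters in mouse, scored 120 and 122, and Smchd1, a chromatin silencing gene, scored 137 and 136. Tet1, a methylcytosine oxidase gene, had no promoter peak, and Ptk2b, a kinase gene, had one in replicate 2 only (35). The others with a peak in both libraries were Stag1, Stag2, Mau2, Dnmt1, Dnmt3a, Tet3, Setdb1, Rest and Ptk2.

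The non-clustered protocadherins, which are single genes outside these arrays, gave 4 of 12 with a promoter peak in both libraries, beside the same 54.9%. Pcdh17 scored 126 and 128, Pcdh1 scored 113 and 109, Pcdh15 scored 97 and 89 and Pcdh12 scored 34 and 37. Pcdh7, Pcdh8, Pcdh9, Pcdh10, Pcdh11x, Pcdh18, Pcdh19 and Pcdh20 had none in either library. Pcdh1 and Pcdh12 lie on chromosome 18 as well, beyond the 3′ flank described here.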

How the data were processed

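DNase-seq of MN1 cells was analysed from the authors' files, 1 peak list and 1 hotspot list for each of 2 libraries on mm10. According to the deposited file notes, each list was made from its own library. Aligner, caller and thresholds were not given in the sources used here. Peaks as deposited carry a score from 1 to 150, and the authors' hotspots a q-value on the −log10 scale between 1.30 and 100. Read depth is unknown, so no interval was computed.

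Repeated entries were removed (43 and 20). Genes and starts came from GENCODE M21, and CpG content, motif matches and word uniqueness from GRCm38, the same assembly. Overlaps were counted in Python 3.11.15 with numpy 2.4.6 and pandas 2.3.3, and scripts were tested on simulated data. Named were every member with a peak in either library, C-type members, the first and last of each cluster, up to 5 shared peaks per region, listed genes and neighbouring genes, apart from 1 listed gene that is not reported here. The members and lists were chosen with earlier results of these data known. No test was possible. Window, start site, overlap, score threshold, flank length, mismatch and library were varied.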

Additional observations from a re-analysis of the deposited data

How the results depend on the processing

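Of 51 alternative values, 40 stayed within 1.5 times the reported count. The count of 24 open members and that of 7 in alpha stayed within that margin under all windows, start sites, single libraries and the score threshold. The member count ran from 16 (peaks above the median score of their list, when all genes gave 51.9%) to 27 (either library alone). A window of 500 bp, the outermost start site or any start site gave the same 24 members. With peaks above the median score, beta kept 10 members instead of 16, the cluster spans 33 shared peaks instead of 67, the gaps and flanks 51 instead of 82, and 1 shared cluster peak held a CTCF match instead of 5. A window of 2.5 kb raised gamma to 2 members by adding Pcdhga8, and either library alone gave gamma 2 to 3 members. Flanks of 100 kb left 32 shared peaks in gaps and flanks. Exact CTCF matches fell to 2 members with a window of 500 bp; with 1 mismatch 20 members and 9 shared cluster peaks held a match. The causes were not tested, apart from fewer bases or peaks searched where a window or list was shortened. No paired analysis was possible because there is 1 group and no test. Read depth is unknown, so its part in a missing peak was not tested.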

Other observations

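Genes annotated as antisense, lincRNA or processed transcript also start in this region, and 6 of 16 had the centre of a shared peak within 1 kb of the start. The share over all such genes of the genome was not computed, so this count cannot be read as high or low. The strongest alpha intron peak, at 37178496 to 37178645, lay 48 bp upstream of the start of Gm10544, a processed transcript on the minus strand, and the next, at 37172316 to 37172465, lay 174 bp after the start of the antisense gene Gm38097. The exon peak of Pcdha12 lay 31 bp upstream of the start of Gm10545, which runs antisense to it. The antisense genes that start in the peak-free block of Pcdha3 to Pcdha7, Gm38225 and Gm37753, had no shared peak nearer than 13273 and 24182 bp. The lists do not say which transcript, if any, was made at these sites.

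Outside the gene arrays, the 5′ flank held a peak at 36801756 to 36801905 (scores 138 and 121) at the start of Vaultrc5, a vault RNA gene. The widest stretch without a peak of either library was 67.8 kb, between Pcdha12 and Pcdhac1, and 51.0 kb without a peak followed Pcdhac1.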
